A study of Rattus norvegicus with 22 samples.

Results

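Pdk4, Angptl4, Plin2, Plin5, Fgf21, Vnn1, Creb3l3 and Ucp2 are liver genes that are known to answer fasting and the fatty acid receptor PPARalpha outside of beta-oxidation itself. They were chosen by name: every probe on the array that was not a control and whose gene name, ignoring case, was 1 of the 8 was taken, which gave 8 of 30367 probes, 1 for each gene. All 8 were among the 19425 probes that passed the filter on low signal.

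PPARalpha is a nuclear receptor of hepatocytes that is activated by fatty acids, pairs with the receptor RXR and switches on genes of fatty acid use. In fasting, fatty acids released from adipose tissue reach the liver, and the same receptor raises secreted signals, coats of lipid droplets and the enzymes that spare glucose. Fish oil fatty acids are known ligands of this receptor, and the experimental diet held salmon fat.

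RNA from the livers of 22 male Sprague-Dawley rats was labelled with Cy5 and hybridized, 1 array per rat, beside a Cy3-labelled common reference RNA from the livers of healthy 10-week-old rats outside the experiment. The groups were CD 3 (control diet, 3 months, 5 rats), BD 3 (BASE-diet, 3 months, 5 rats), CD 14 (control diet, 14 months, 6 rats) and BD 14 (BASE-diet, 14 months, 6 rats). All rats ate a semi-synthetic diet with food always available, and in the BASE-diet 6% salmon fat took the place of lard, with 8% hydrolysed linden extract, 8% pumpkin puree and 1% probiotic bacteria added. The months are those of feeding, so the 14-month rats were also older, and age and time on the diet cannot be told apart. The labels do not mention fasting, and the feeding state when the livers were taken is not given. The labels give Cy5 to the rats on every array and the methods describe the dyes differently. The labels were followed, and no dyes were swapped. Values are log2 ratios of the rat's liver to the reference, so 0 means a signal equal to the reference and 1 a doubling. A ratio belongs to its own probe and does not rank one gene against another.

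The arrays lay on 5 slides, scanned apart, that did not hold the groups evenly. Both diets of a time point met only on slide B (2 BD 3 arrays, 1 of CD 3) and on slide C (2 CD 14 arrays beside all 6 of BD 14). Slide A mixed 3 arrays of BD 3 with 3 of CD 14. Slide E held a single array each of CD 3 and CD 14, and slide D nothing but 3 arrays of CD 3. The share of spots well above the Cy5 background ran from 52.4% to 93.6% per array. CD 3 replicate 1 and CD 14 replicate 1 stood apart, with 4.44% and 4.05% of spots flagged as non-uniform against less than 1% on the others. All 8 hepatocyte markers were well above background on all 22 arrays, and the correlation of log2 ratios between arrays was -0.08 at the lowest.

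None of the 8 genes passed limma's test at a Benjamini-Hochberg adjusted p of 0.05 in any of the comparisons, and neither did any other probe, so the background was 0.0% of 19425 in each of the 4 comparisons and in the interaction of diet and time. Differences are therefore given with their 95% intervals, and a p that misses the threshold does not show that groups were alike. At an unadjusted p under 0.05, BD 3 against CD 3 held 1 of the 8 genes (Ucp2, higher) beside 7.11% of all probes, with 4.99% higher and 2.12% lower. BD 14 against CD 14 held 1 (Vnn1, higher) beside 4.59%, with 3.79% higher. CD 14 against CD 3 held 1 (Ucp2, higher) beside 10.1%, with 6.85% higher and 3.28% lower. BD 14 against BD 3 held 0 beside 7.43%, of which 4.75% were higher. The interaction held 0 beside 4.79%, with 2.48% higher and 2.32% lower.

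By direction alone, the BASE-diet group had the higher mean for 3 of the 8 genes at 3 months and for 6 of 8 at 14 months. The median differences were -0.01 and 0.65, where all probes had medians of 0.03 and 0.05, and 53.6% and 56.3% of all probes were higher. On the control diet 2 of the 8 were higher at 14 months than at 3 months (median -0.39, all probes 0.03). On the BASE-diet 7 of 8 were higher (median 0.41, all probes 0.07). These counts depend on the slides. With the slide as a block, all 8 were higher on the BASE-diet at 3 months (median 0.41, all probes 0.15) and 6 of 8 at 14 months (median 0.28, all probes 0.030). In that fit 5 of 8 were higher at 14 months on the control diet (median 0.40, all probes 0.14) and 3 of 8 on the BASE-diet (median -0.13, all probes 0.0027). No slide held both BASE-diet groups. The comparisons share groups, so these counts are not independent of each other. Ucp2 in CD 14 against CD 3 was also the only case in these 4 comparisons in which the groups of a member did not overlap, beside 0.501% of probes in that comparison, 0.701% in BD 3 against CD 3, 0.773% in BD 14 against CD 14 and 2.26% in BD 14 against BD 3.

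**Figure D1:**
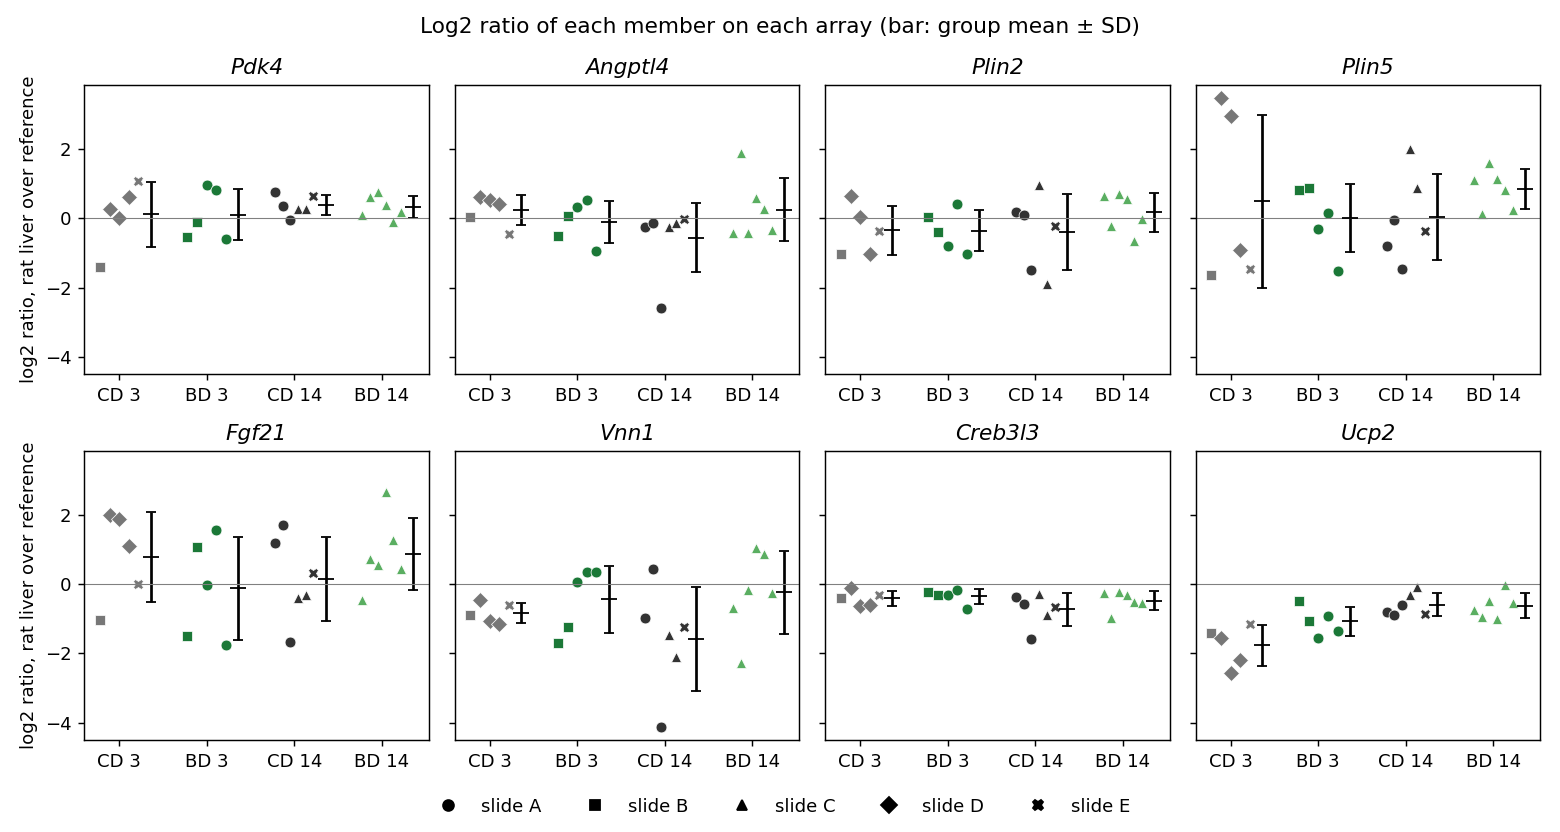
Log2 ratio of rat liver over reference (vertical axis) for each of the 8 genes in the groups CD 3, BD 3, CD 14 and BD 14, with 1 point per array, its shape giving the slide, and a bar for the group mean ± SD. The points of Creb3l3 lie close together, and those of Ucp2 in CD 3 all lie below its points in CD 14 and in BD 14.

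**Figure D2:**
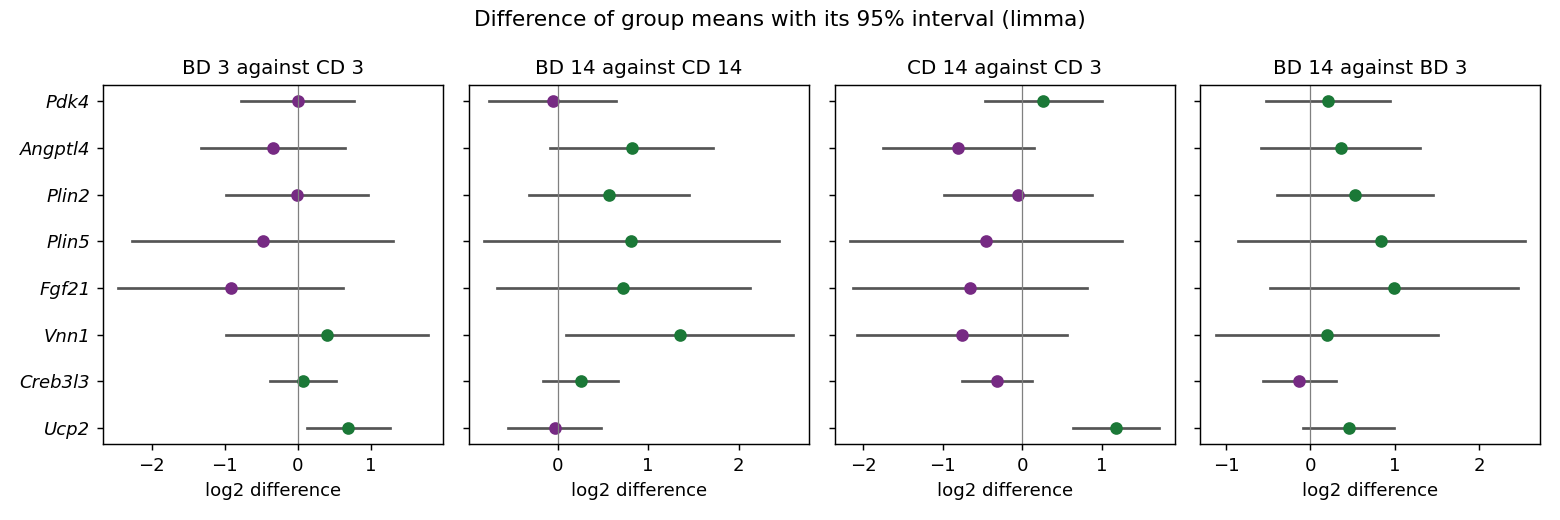
Difference of group means in log2 units (horizontal axis) with its 95% interval from limma for each gene, in 4 comparisons. The intervals that leave out 0 are those of Ucp2 in BD 3 against CD 3 and CD 14 against CD 3, and of Vnn1 in BD 14 against CD 14.

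Fgf21 encodes a hormone that the liver secretes in fasting and that acts through FGF receptors with the co-receptor beta-klotho. Its log2 ratios were -1.04, 2.02, 1.90, 1.12 and 0.02 in CD 3 replicates 1 to 5. They were -1.48, 1.08, -0.01, 1.58 and -1.74 in BD 3. The lowest, median and highest values were -1.66, 0.01 and 1.74 in CD 14, and -0.45, 0.65 and 2.68 in BD 14. Each group held arrays both above and below the reference, and all groups overlapped.

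The means of Fgf21 in order were -0.11 ± 1.49 in BD 3 (SD, n = 5), 0.15 ± 1.22 in CD 14 (n = 6), 0.80 ± 1.30 in CD 3 (n = 5) and 0.88 ± 1.05 in BD 14 (n = 6), and no neighbours in this order differed beyond their spread. The difference between the diets was -0.92 at 3 months (95% interval -2.46 to 0.62) and 0.73 at 14 months (-0.68 to 2.13). At 3 months it was -0.51 without BD 3 replicate 5, -0.58 without BD 3 replicate 1 and -1.38 without CD 3 replicate 1. At 14 months it was 0.37 without either CD 14 replicate 3 or BD 14 replicate 4, and at most 1.04 with 1 array left out. Within slide C the 14-month difference was 1.23. The diet by time interaction of 1.65 had an unadjusted limma p of 0.115. With the slide as a block, the 3-month difference turned to 0.48, and within slide B, which holds 1 CD 3 and 2 BD 3 arrays, it was 0.84.

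The probe of Fgf21, in 10 spots per array, spans 580 bases of rn4 at chr1:96082751-96083330 on the minus strand and so crosses an intron. It is shown because its signal varied in the reference as well:
Fgf21 probe: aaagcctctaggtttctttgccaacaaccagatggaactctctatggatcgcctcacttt

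The reference RNA should give a like signal on every array, and for Fgf21 it did not. The log2 Cy3 signal lay between 7.88 and 8.38 on 10 arrays and between 9.26 and 10.84 on the other 12. The 10 low arrays comprised 2 from each 3-month group and 3 from each 14-month group, and slides A to D all held arrays of both kinds. The SD of the Cy3 signal over arrays, after quantile normalization, was 1.04 for Fgf21, where the median of probes above background on all arrays was 0.38. The part of this in the spread of the ratios was not tested.

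**Figure D3:**
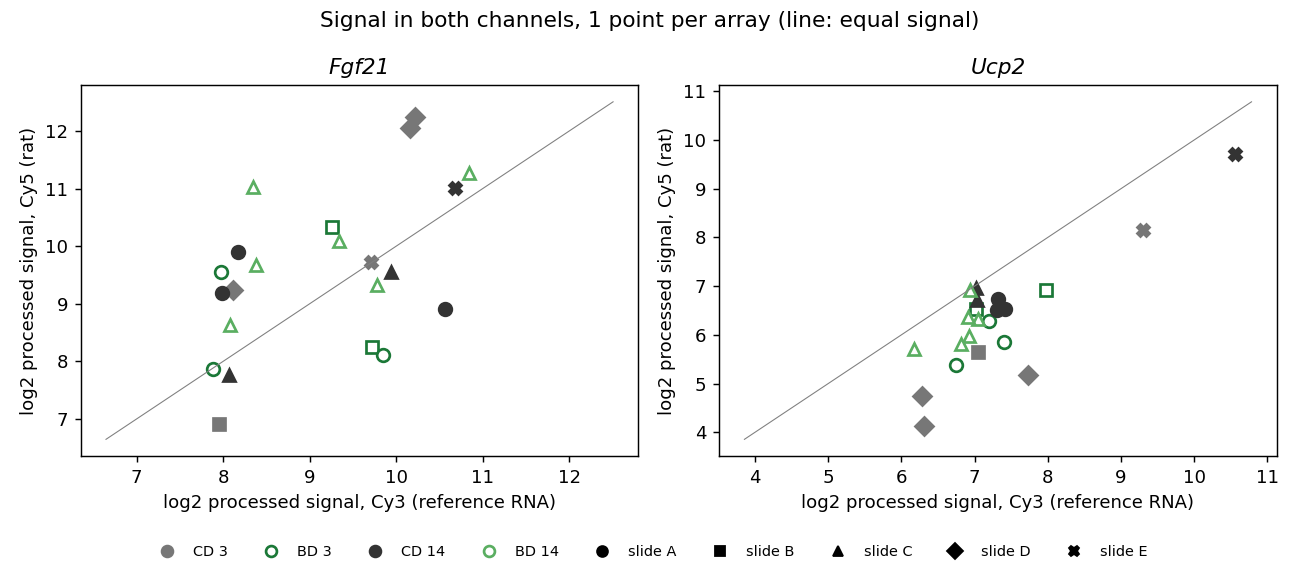
Log2 processed signal of the rat's liver in Cy5 (vertical axis) against that of the reference RNA in Cy3 (horizontal axis) for Fgf21 and Ucp2, with 1 point per array and a line of equal signal. The Cy3 signal of Fgf21 falls into a part up to 8.38 and a part from 9.26 on, and the 2 arrays of slide E lie apart for Ucp2 in both channels.

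Of the receptor side of FGF21, 4 genes were found and tested (Fgfr1, Fgfr2, Fgfr3 and Fgfr4), and none passed the adjusted threshold. At 14 months 3 of the 4 were higher on the BASE-diet, with a median difference of 0.43. An unadjusted p under 0.05 was found for 1 of those, beside 3.79% of all probes that were higher at that p. At 3 months 3 of 4 were higher with a median of 0.16.

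Angptl4 encodes a secreted inhibitor of lipoprotein lipase, which limits the uptake of fat from lipoproteins. On the CD 3 arrays its log2 ratios were 0.04, 0.64, 0.55, 0.43 and -0.43. They were -0.50, 0.08, 0.33, 0.54 and -0.95 in BD 3. At 14 months, the lowest, median and highest values were -2.60, -0.19 and -0.01 in CD 14, and -0.43, -0.04 and 1.89 in BD 14. All 6 CD 14 arrays lay below the reference, where 4 of 5 CD 3 arrays and 3 of 6 BD 14 arrays lay above it, and the ranges overlapped in each of the comparisons.

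At 14 months the mean of Angptl4 was -0.56 ± 1.00 in CD 14 and 0.26 ± 0.90 in BD 14 (SD, n = 6 each). The difference of 0.82 (95% interval -0.08 to 1.72) had an unadjusted limma p of 0.0729 and an adjusted p of 0.952. It rested in part on CD 14 replicate 3, and without that array it was 0.41, while without BD 14 replicate 2 it was 0.49. On the slide that holds both groups it was 0.44, from 6 BD 14 and 2 CD 14 arrays. At 3 months the means were 0.24 ± 0.44 in CD 3 and -0.10 ± 0.61 in BD 3 (n = 5 each), with a difference of -0.35 (-1.33 to 0.64), which was -0.13 without BD 3 replicate 5, -0.25 within slide B and turned to 0.34 with the slide as a block. On the control diet, the 14-month mean was lower than the 3-month mean by 0.80, with an interval of -1.75 to 0.14, and without CD 14 replicate 3 the difference was -0.40. Within slide E, from 1 array each, it turned to 0.42.

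The probe of Angptl4 lies at rn4 chr7:16261624-16261683 on the minus strand.

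Creb3l3 encodes CREBH, a membrane-bound transcription factor of hepatocytes that is released by cleavage in fasting and is known to act with PPARalpha on Fgf21. It was the steadiest of the 8 genes. In log2 ratio, replicates 1 to 5 had -0.40, -0.11, -0.61, -0.60 and -0.31 in CD 3. They were -0.22, -0.31, -0.29, -0.16 and -0.71 in BD 3. Of the 14-month arrays, the lowest, median and highest were -1.58, -0.61 and -0.28 in CD 14, and -0.98, -0.41 and -0.23 in BD 14. All 22 arrays lay below the reference, and the groups overlapped throughout.

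The means of Creb3l3 in order were -0.72 ± 0.47 in CD 14, then -0.47 ± 0.28 for the 6 rats of BD 14, -0.41 ± 0.21 for CD 3 and -0.34 ± 0.22 for BD 3, and neighbours differed by less than 1 SD. The diet difference was 0.07 at 3 months (95% interval -0.39 to 0.52) and 0.25 at 14 months (-0.16 to 0.67). The latter was 0.083 without CD 14 replicate 3 and 0.12 within slide C. At 3 months leaving out 1 array gave 0.015 (CD 3 replicate 3) to 0.16 (BD 3 replicate 5). The intervals of Creb3l3 over all arrays are the narrowest among the 8 genes and leave out changes over 1.59-fold upwards at 14 months. The SD over arrays of its reference signal was 0.18, below the median probe. None of the 7 genes of the CREB3 family and its processing proteases that were tested passed the adjusted threshold.

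The 250 bases upstream of the Creb3l3 start hold 1 copy of AGGTCA, the unit that is repeated in the element that PPARalpha and RXR are known to bind, and those upstream of Plin5 hold 1 as well. They are shown from RefSeq, build GRCr8, with that unit in capitals. The Creb3l3 stretch is chr7:9273070-9273319 on the plus strand and the Plin5 stretch is chr9:1033285-1033534 on the minus strand:
Creb3l3 upstream: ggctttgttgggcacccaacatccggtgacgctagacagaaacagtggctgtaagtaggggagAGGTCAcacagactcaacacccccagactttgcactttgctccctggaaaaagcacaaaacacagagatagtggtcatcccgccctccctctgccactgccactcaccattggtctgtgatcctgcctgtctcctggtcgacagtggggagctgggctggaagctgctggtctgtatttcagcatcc
Plin5 upstream: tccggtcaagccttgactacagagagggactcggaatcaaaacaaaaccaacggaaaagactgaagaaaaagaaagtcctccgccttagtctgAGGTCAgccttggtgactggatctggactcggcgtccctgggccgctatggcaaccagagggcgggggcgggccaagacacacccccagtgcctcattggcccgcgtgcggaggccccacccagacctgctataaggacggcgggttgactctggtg

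The full element, 2 copies of AGGTCA with 1 base of any kind between them, on either strand, was in none of the 8 windows of 300 bases that RefSeq gives for 7 of the 8 genes (Plin2 has 2 windows). It is also rare in general, in 18 of 33469 windows, which is 0.0538%. A looser form, with AGGNCA for both copies, was in none of the 8 and in 0.415% of all windows. The single unit AGGTCA was in 2 of the 8 and in 16.2% of all windows, and it overlaps both longer forms. The windows reach only 250 bases upstream, and the absence of these letters says nothing of elements elsewhere.

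Pdk4 encodes a kinase that switches off pyruvate dehydrogenase and so spares glucose when fat is burned. The 5 log2 ratios were -1.40, 0.27, 0.01, 0.63 and 1.08 in CD 3. They were -0.54, -0.09, 0.97, 0.82 and -0.59 in BD 3. The 14-month values, lowest, median and highest, were -0.03, 0.32 and 0.77 in CD 14, and -0.10, 0.28 and 0.76 in BD 14. The 14-month arrays lay close together while the 3-month arrays spread over more than 1 unit on either diet.

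At 3 months the mean of Pdk4 was 0.12 ± 0.94 on the control diet and 0.11 ± 0.74 on the BASE-diet, and at 14 months these were 0.38 ± 0.29 and 0.32 ± 0.32. The diet difference was -0.0036 at 3 months (95% interval -0.77 to 0.77) and -0.06 at 14 months (-0.76 to 0.65). The Cy5 channel alone put the 3-month difference at 1.15, the slide block put it at 0.55 and slide B alone at 1.09. Its size and direction are therefore not settled. Among 9 other genes of pyruvate dehydrogenase control, 7 were higher on the BASE-diet at 14 months with a median of 0.10, and none passed the adjusted threshold in any of the 4 comparisons.

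The probe of Pdk4 spans 1889 bases of rn4 at chr4:30239150-30241038 on the minus strand, across an intron. It is shown because Pdk4, a much used marker of fasting, had diet differences near 0 at both times:
Pdk4 probe: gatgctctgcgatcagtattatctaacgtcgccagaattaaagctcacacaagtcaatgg

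Vnn1 encodes vanin-1, an enzyme that splits pantetheine and is known as a sensitive target of PPARalpha in liver. For Vnn1 the log2 ratios were -0.89, -0.45, -1.06, -1.14 and -0.61 in CD 3. They were -1.71, -1.24, 0.07, 0.37 and 0.36 in BD 3. After 14 months the lowest, median and highest were -4.13, -1.36 and 0.45 in CD 14, and -2.27, -0.19 and 1.06 in BD 14. All 5 CD 3 arrays lay below the reference, the BD 3 arrays fell into 2 low and 3 high ones, and the groups overlapped in all 4 comparisons. The 2 low BD 3 arrays were those of slide B.

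At 14 months Vnn1 had the largest diet difference of the 8 genes. The mean was -1.58 ± 1.51 in CD 14 and -0.23 ± 1.21 in BD 14 (SD, n = 6 each), a difference of 1.35 (95% interval 0.09 to 2.61), which is 2.55-fold. The unadjusted limma p was 0.0366 and the adjusted p was 0.952. Within slide C the difference was 1.56, and without CD 14 replicate 3 it was 0.84 (unadjusted limma p 0.129). At 3 months the means were -0.83 ± 0.29 in CD 3 and -0.43 ± 0.98 in BD 3, a difference of 0.40 (-0.98 to 1.78). Leaving out 1 array gave 0.20 (BD 3 replicate 4 or 5) to 0.72 (BD 3 replicate 1), but within slide B, with 1 CD 3 and 2 BD 3 arrays, it was -0.59.

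The probe of Vnn1 lies at rn4 chr1:22087762-22087821 on the minus strand, in 10 spots per array. Of 8 genes of pantetheine and coenzyme A, among them the relative Vnn3 and the pantothenate kinases Pank1 to Pank4, 7 were higher on the BASE-diet at 14 months with a median difference of 0.14. At 3 months 3 of the 8 were higher, and none passed the adjusted threshold at either time.

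Plin2 encodes perilipin 2, the main coat protein of lipid droplets in hepatocytes. In log2 ratio the arrays had -1.02, 0.64, 0.04, -1.02 and -0.35 in CD 3. They were 0.03, -0.39, -0.79, 0.41 and -1.03 in BD 3. In the older rats the lowest, median and highest were -1.90, -0.05 and 0.98 in CD 14, and -0.66, 0.28 and 0.71 in BD 14. High and low arrays were found in every group.

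The diet difference of Plin2 was -0.01 at 3 months (95% interval -0.98 to 0.96), from means of -0.34 ± 0.71 in CD 3 and -0.35 ± 0.59 in BD 3. With the slide as a block it turned to 0.57, and within slide B to 0.84. The difference was 0.57 at 14 months (-0.31 to 1.45), from -0.39 ± 1.09 in CD 14 and 0.18 ± 0.56 in BD 14. Within slide C the 14-month difference was 0.64. Leaving out CD 14 replicate 3 or 5 gave 0.35 or 0.27. The probe lies at rn4 chr5:105718623-105718682 on the minus strand.

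Plin5 encodes perilipin 5, which ties lipid droplets to mitochondria in tissues that burn fat. In the reference channel it was well above background on 12 of 22 arrays, in 1 spot per array, where the other 7 genes were so on all 22. The log2 ratios of Plin5 were -1.62, 3.49, 2.97, -0.90 and -1.46 in CD 3. They were 0.83, 0.89, -0.31, 0.17 and -1.52 in BD 3. For its 14-month groups the lowest, median and highest were -1.47, -0.20 and 2.01 in CD 14, and 0.14, 0.98 and 1.62 in BD 14. All 6 BD 14 arrays had ratios above 0, but they shared slide C, and their Cy3 signals were low, from 10.5 to 48.9.

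Mean ratios of Plin5 on the control diet were 0.49 ± 2.52 at 3 months and 0.04 ± 1.24 at 14 months, and those on the BASE-diet were 0.01 ± 0.99 and 0.85 ± 0.57. The diet difference was -0.48 at 3 months (95% interval -2.26 to 1.30) and 0.81 at 14 months (-0.81 to 2.44), which was 0.51 without CD 14 replicate 3. Within slide C the 14-month difference was -0.59, so its direction turned. The 2 highest ratios, CD 3 replicates 2 and 3, have a surrogate value in Cy3, which the scanner software puts in place of a signal too near background, and CD 3 replicate 4 has one in Cy5. Without these 3 arrays the difference of BD 3 against CD 3 was 1.55 and that of CD 14 against CD 3 was 1.58, both turned in sign, with 2 CD 3 arrays left. The direction of Plin5 in comparisons with CD 3 is therefore not settled. The files place its probe on unplaced sequence of rn4, at chrUn:25680868-25680927.

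Of 11 further genes of lipid droplets and lipolysis, 7 were higher on the BASE-diet at 3 months (median 0.20) and 9 at 14 months (median 0.22). At an unadjusted p under 0.05, 1 and 3 were higher, beside 4.99% and 3.79% of all probes. None passed the adjusted threshold. Cidec, a protein that fuses lipid droplets, was higher by 1.05 ± 0.31 (SE) at 3 months and by 1.26 ± 0.28 at 14 months, with adjusted limma p of 0.399 and 0.396.

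Ucp2 encodes a carrier of the inner mitochondrial membrane, named an uncoupling protein, which in liver is known from Kupffer cells as well as from hepatocytes. For Ucp2 the log2 ratios were -1.40, -1.54, -2.56, -2.18 and -1.14 in CD 3. They were -0.49, -1.06, -1.55, -0.91 and -1.36 in BD 3. The lowest, median and highest were -0.88, -0.69 and -0.07 in CD 14, and -0.998, -0.63 and -0.01 in BD 14. All 22 arrays lay below the reference. Each CD 14 array was higher than each CD 3 array, and all other groups compared overlapped.

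The means of Ucp2 in order were -1.76 ± 0.59 in CD 3, -1.07 ± 0.41 in BD 3, -0.62 ± 0.36 in BD 14 and -0.58 ± 0.33 in CD 14. The difference of CD 14 against CD 3 was 1.18 (95% interval 0.64 to 1.72), which is 2.27-fold, with an unadjusted limma p of 0.000169 and an adjusted p of 0.152. Without CD 3 replicate 5 it was 1.34 with an adjusted p of 0.0175, and without both arrays of slide E it was 1.39 with an adjusted p of 0.0280. In those settings 205 and 122 of the 19425 probes passed in this comparison. Its size was 0.69 with the slide as a block, 0.56 with normexp background and loess, and 0.28 within slide E, from 1 array each. The Cy5 signal of Ucp2 was well above background on 21 arrays and not on CD 3 replicate 4, without which the difference was 1.08 (adjusted limma p 0.193). The authors' deposited log2 values, which hold Ucp2 and none of the other 7 genes, gave 1.14, but 1 of their CD 3 columns matches no array used here.

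The remaining comparisons of Ucp2 were smaller. BD 3 was higher than CD 3 by 0.69 (95% interval 0.13 to 1.26), with an unadjusted limma p of 0.0184 and an adjusted p of 0.585. With the slide as a block this was 0.32, and within slide B it was 0.63. BD 14 and CD 14 differed by -0.03 (-0.55 to 0.48), and by -0.43 within slide C. BD 14 was higher than BD 3 by 0.46 (-0.08 to 1.00), which turned to -0.048 with the slide as a block. The interaction of diet and time was -0.73 with an unadjusted limma p of 0.0614.

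The probe of Ucp2 spans 444 bases of rn4 at chr1:157927128-157927571 on the plus strand, across an intron, in 10 spots per array. It is shown because Ucp2 had the smallest p of the 8 genes:
Ucp2 probe: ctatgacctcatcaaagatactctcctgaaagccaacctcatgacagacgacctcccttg

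On slide E, the log2 signal of Ucp2 was 8.16 and 9.71 in Cy5 and 9.30 and 10.57 in Cy3. On the other 20 arrays it was at most 6.96 in Cy5 and at most 7.97 in Cy3. The ratios of those 2 arrays, -1.14 and -0.86, lay within the range of the others.

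Markers of Kupffer cells and macrophages had differences of the same sign as Ucp2 at 3 months and between the times, and none of them passed the adjusted threshold. All 11 markers tested were higher in CD 14 than in CD 3, 8 of them at an unadjusted p under 0.05 (10.1% of all probes), with a median difference of 1.19, and 10 of 11 were higher in BD 3 than in CD 3, with a median of 0.69. The complement genes C1qc and C1qa and the Kupffer cell receptors Clec4f and Vsig4 were higher in CD 14 by 1.25, 1.28, 1.34 and 1.71 (adjusted limma p between 0.201 and 0.291). At 14 months 1 of 11 was higher on the BASE-diet (median -0.13). The 8 hepatocyte markers had median differences of 0.25 and 0.15 in the first 2 of these comparisons. The mean of the 11 markers ranged from -2.73 to -0.49 on the CD 3 arrays and from -1.997 to -0.33 in BD 3. At 14 months it ranged from -0.94 to 0.02 on the control diet and from -1.53 to 0.09 on the BASE-diet. On slide E it was -0.49 in CD 3 and -0.42 in CD 14, from 1 array each. On slide B it was -1.49 on the CD 3 array, and -0.73 and -1.997 on the 2 BD 3 arrays. None of the 11 was absent, and 8 were well above background on all 22 arrays. In whole liver, fewer cells of a type and less RNA per cell cannot be told apart, and the part of these markers in the differences of Ucp2 was not tested.

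Over the 22 arrays, Ucp2 followed the mean of the 11 macrophage markers with a Pearson r of 0.82 (two-sided permutation p 1e-05, the smallest that 100000 resamples can give, adjusted p 0.00012) and a Spearman rho of 0.77 (permutation p 5e-05, adjusted p 0.0006). The adjustment is over 24 relations, those of the 8 genes with 3 list means. These relations were added after seeing the data, so their p-values are descriptive. The share of all probes that reach such an r is not given here. The r was 0.78 without the 2 arrays farthest from the median of the markers, 0.72 in deviations from the group means, 0.53 within slide A, 0.85 within slide C and 0.87 in the Cy5 channel alone. None of the other 7 genes had an adjusted p under 0.05 with this mean, and their r lay between -0.40 and 0.11.

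Vnn1 and Creb3l3 in turn followed the mean of 27 PPARalpha target genes of fatty acid metabolism, a list that holds none of the 8. These relations too were added after seeing the data, and their p-values are descriptive. For Vnn1, r was 0.82 (two-sided permutation p 1e-05, the smallest possible, adjusted p 0.00012) and rho was 0.81 (permutation p 2e-05, adjusted p 0.00048). For Creb3l3, r was 0.73 (permutation p 0.00018, adjusted p 0.00144) and rho was 0.66 (permutation p 0.00104, adjusted p 0.00832). CD 14 replicate 3 was the lowest array in the list mean and in both genes. Without it r was 0.74 and 0.59, and without the 2 arrays farthest from the median of the list it was 0.79 and 0.60. In deviations from the group means r was 0.81 and 0.80, within slide C 0.89 and 0.75, and in Cy5 alone 0.84 and 0.74. Within slide A, which holds CD 14 replicate 3, it was 0.96 and 0.94.

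The other genes were looser with that list. Plin2 had an r of 0.56 (permutation p 0.00615, adjusted p 0.0369), which was 0.39 without the 2 farthest arrays, and its rho of 0.49 had an adjusted permutation p of 0.131. Fgf21, Angptl4, Plin5, Ucp2 and Pdk4 had r of 0.34, 0.30, 0.27, 0.17 and 0.03, with adjusted permutation p between 0.363 and 0.979. With the mean of 13 genes of the fasting and glucocorticoid response, such as the gluconeogenic enzyme Pck1, the r of the 8 genes ran from -0.17 to 0.36, and none had an adjusted permutation p under 0.05.

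**Figure D4:**
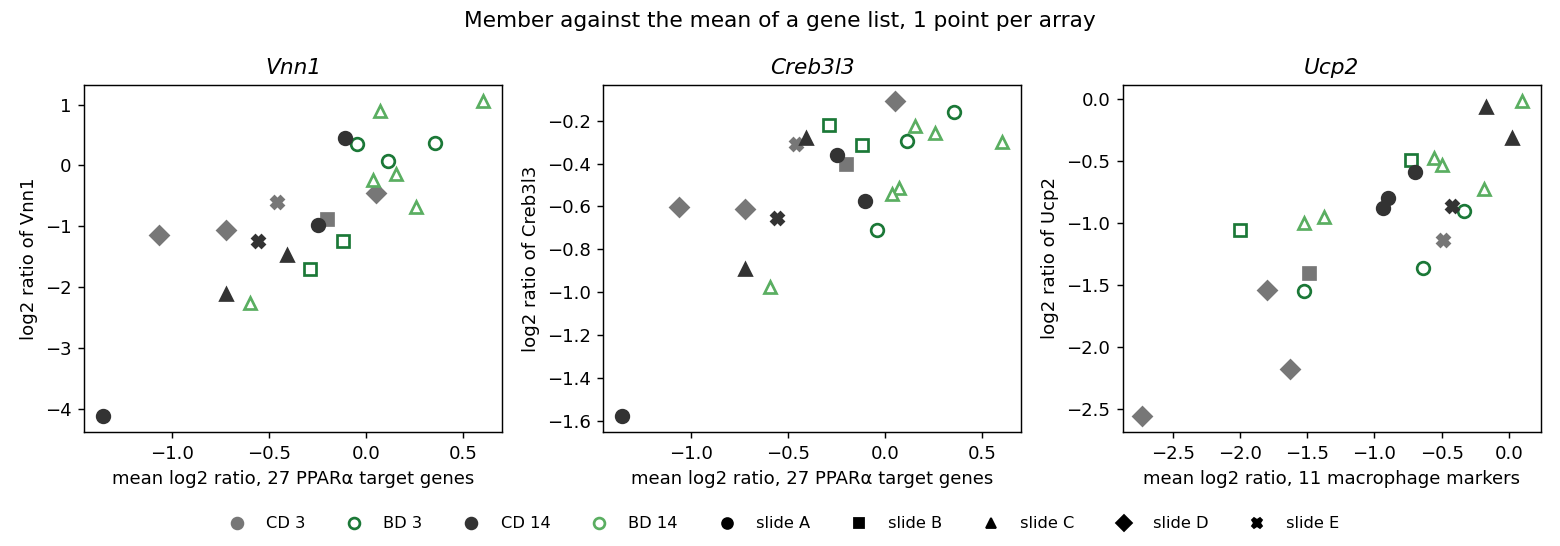
Log2 ratio of Vnn1 and Creb3l3 against the mean log2 ratio of 27 PPARalpha targets, and of Ucp2 against that of 11 Kupffer cell and macrophage markers, with 1 point per array, filled for control diet and open for BASE-diet. CD 14 replicate 3 is the lowest point for Vnn1 and Creb3l3 at a list mean of -1.35, and CD 3 arrays are the lowest for Ucp2.

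The 27 PPARalpha targets themselves were higher on the BASE-diet for 24 genes at 3 months and 25 at 14 months. Their median differences were 0.40 and 0.55, none passed the adjusted threshold, and 53.6% and 56.3% of all probes were higher. On slide B their mean was -0.20 in CD 3 replicate 1, and -0.29 and -0.12 in BD 3 replicates 1 and 2. On slide C it was -0.41 and -0.72 on the 2 CD 14 arrays and ran from -0.59 to 0.60 on those of BD 14. At an unadjusted p under 0.05, 6 and 12 were higher and 0 lower. Of all probes, 4.99% and 3.79% were higher at that p, and 2.12% and 0.803% lower. Acot1, an acyl-CoA thioesterase, was higher by 2.54 ± 0.63 (SE, adjusted limma p 0.399) and 3.31 ± 0.58 (adjusted p 0.153). Eci1, an enoyl-CoA isomerase, was higher by 1.32 at 14 months (adjusted limma p 0.766). Between the times on the control diet, the fatty acid carriers Cd36 and Fabp1 were higher at 14 months by 2.32 and 0.73 (adjusted limma p 0.222 and 0.314), while 21 of the 27 targets were lower (median -0.15). Of the receptor and its partners, such as Ppara and Rxra, 4 of 10 were higher at 3 months and 6 of 10 at 14 months, with medians of -0.10 and 0.06.

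Among the 8 genes, 23 of the 28 pairs had a positive r over the 22 arrays, with a median of 0.32 and a range of -0.31 to 0.66. After Benjamini-Hochberg adjustment over the 28 pairs, 4 had a permutation p under 0.05. Plin2 and Creb3l3 had an r of 0.66 (adjusted p 0.0108), with a rho of 0.68 (adjusted p 0.0118). Angptl4 and Fgf21, both secreted signals, had an r of 0.64 (adjusted p 0.0108) and a rho of 0.73 (adjusted p 0.00448). Both pairs had a positive r within slides A and C, in deviations from the group means and without the 2 farthest arrays, the lowest being 0.45, with values of 0.41 and 0.49 in Cy5 alone for Angptl4 with Fgf21 and Plin2 with Creb3l3.

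The other 2 pairs were Plin2 with Plin5 (r 0.58, adjusted permutation p 0.0323, rho 0.65, and r 0.56 over the 19 arrays with no surrogate for Plin5, whose Cy3 signal was not well above background on 10 of 22) and Vnn1 with Creb3l3 (r 0.65, adjusted permutation p 0.0272). For Vnn1 with Creb3l3 the rho was 0.37 (adjusted permutation p 0.279), and r was 0.35 without CD 14 replicate 3, so it rests in part on that array. Ucp2 had no pair with an adjusted permutation p under 0.05, and its r with the other 7 lay between -0.31 and 0.05. With Plin5 its r was -0.01, but 0.59 without the 2 arrays farthest from the median of Plin5 and 0.55 in Cy5 alone. The arrays share slides and a reference, and these p-values take them as exchangeable.

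**Figure D5:**
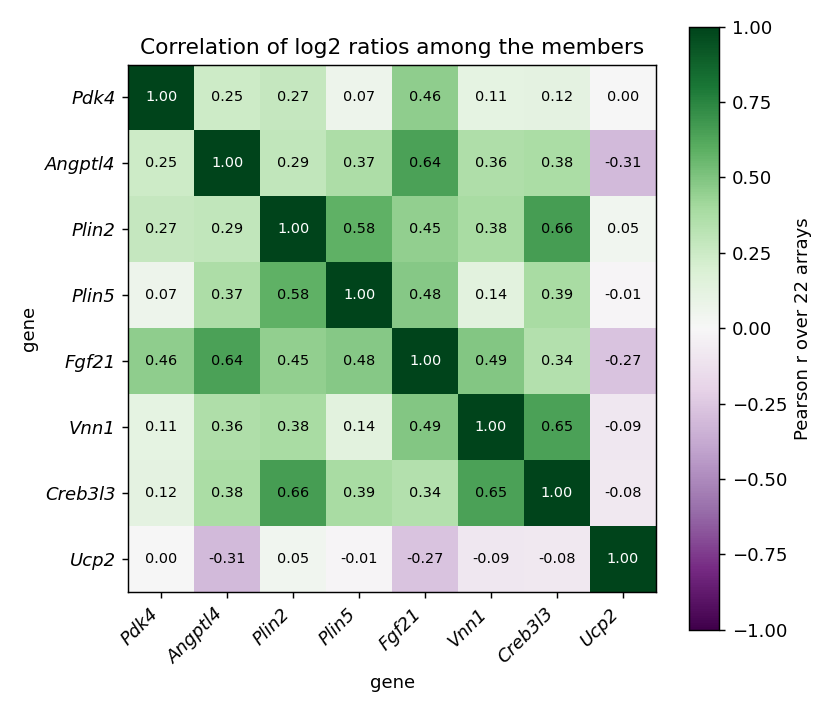
Pearson r of log2 ratios over 22 arrays for each pair of the 8 genes, given as a colour and a printed value, with genes on both axes. The highest is Plin2 with Creb3l3 (0.66) and the lowest Angptl4 with Ucp2 (-0.31), and the row of Ucp2 holds no r above 0.05.

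CD 14 replicate 3 stood out across the set. Its ratio was below 0 for all 8 genes and the lowest of the 22 arrays for Angptl4, Creb3l3 and Vnn1, and the median over the 8 genes was -1.54, where the next lowest array, CD 3 replicate 1, had -1.03. Its share of non-uniform spots was 0.0119%, within the range of the other arrays. Its share of spots well above the Cy5 background was high, at 88.8%. Higher shares were those of CD 3 replicate 1 (93.6%), BD 3 replicate 5 (92.4%) and CD 14 replicate 1 (90.6%). The next lower share was 77.0%, on BD 3 replicate 2. The mean of the 27 PPARalpha targets was lowest on CD 14 replicate 3 as well, at -1.35. This array had the highest log2 Cy3 signal of the 22 for Angptl4 (15.06) and Plin2 (15.85). Its log2 Cy5 signal was the lowest of the 22 for Angptl4 (12.46) and Vnn1 (7.37). For Plin2 and Fgf21 its Cy5 signals, 14.35 and 8.90, were not the lowest of CD 14. The part of each channel in the low ratios was not tested.

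The genes whose ratio over the 22 arrays was most like each of the 8 were sought among 16490 genes, by Pearson r. For Vnn1 they were Acot2 (0.86), Pex11a (0.82) and Cyp4a1 (0.80), a thioesterase, a peroxisome division factor and a fatty acid hydroxylase, all in the list of 27 targets. For Creb3l3 they were Crat (0.89), Acot4 (0.87) and Mlycd (0.79), which encode carnitine acetyltransferase, a thioesterase and malonyl-CoA decarboxylase. For Ucp2 they were a transcript without a symbol (0.90), Ifitm3 (0.89) and Ifitm7 (0.87), the last 2 being interferon-induced membrane proteins.

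For Angptl4 the closest were Gjb2 (0.83), Slc25a47 (0.79) and Alpl (0.77), and for Plin2 they were Slc25a32 (0.82), Fzd4 (0.80) and Ldha (0.79). For Pdk4 they were Wdr44 (0.90), Tubb3 (0.82) and Nupl1 (0.81). Plin5 was most like Zbtb17, Thtpa and Ppie, each with an r between 0.88 and 0.89. Fgf21 had the weakest likeness, with r of 0.72, 0.71 and 0.71 for a locus without a symbol, Ccdc17 and Pex19. These are the highest of many correlations and are given as a description, with no test.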

How the data were processed

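Liver RNA of 22 rats in 4 groups was measured on Agilent two-colour arrays. The authors deposited Agilent Feature Extraction output (version 10.7.3.1 by the submitters' notes), in which background was subtracted and dyes were normalized by Lowess. Deposited log10 ratios (Cy5 over Cy3) were converted to log2, and the deposited intensity values of each channel served for detection and for the alternatives. The authors also deposited log2 values of 3017 entries, used only for Ucp2. Each array had 62976 spots, 58717 of them not controls. Spots flagged as non-uniform were dropped before averaging per probe. The filter kept probes that, on all arrays of some group, had a share of 0.5 or more of their spots well above the Cy5 background. The number of arrays limits the precision.

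The 4 group means were fitted with limma 3.58.1 in R 4.3.3 (eBayes), with Benjamini-Hochberg adjustment over 19425 probes and a threshold of 0.05. The steps were tested on simulated data. Intervals are at 95%. Correlations used 100000 permutations in Python 3.11.15 with scipy 1.17.1. Upstream sequences and symbols came from RefSeq (GRCr8), and probe positions from the files (rn4). Genes outside the 8 are named where they were the 3 most like a member by r, or had an unadjusted p under 0.01 within a list, at most 4 a list. Other list members are named without values, to say what a list holds, apart from Slc25a14 and Ucp1, chosen after their values were seen. The list of lipoprotein lipase control is not reported here. The 8 genes and the lists were chosen with earlier results of these data known, and the relations with list means were added after seeing the data. With 1 array per rat, limma p-values measure a spread that holds rat, labelling, array and slide together. Permutation p-values take the arrays as exchangeable. The labels number the rats but do not otherwise describe them. Nothing in the labels pairs same-numbered rats of different groups.

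Alternatives were normexp background (offset 50) with loess, Cy5 alone, median-centred arrays, 3 other detection settings, non-uniform spots kept, an intensity trend, array weights, slide or replicate blocks, within-slide values, 2 groups only, main probes only, an F test with Tukey's procedure as in the methods, and each array left out.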

Additional observations from a re-analysis of the deposited data

Results flagged for a closer look

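In 32 groups of values (8 genes in 4 groups), an array lay far from the others 2 times, judged by its gap to the next array over the group's range. Chance gives about 1 in 20, so 2 of 32 is near that rate. Angptl4 was -2.60 on CD 14 replicate 3, and the next lowest array of that group was at -0.25. Creb3l3 was -0.71 on BD 3 replicate 5, and the next lowest was at -0.31. No member had an adjusted p under 0.05 for the interaction of diet and time.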

How the results depend on the processing

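The count of members past the adjusted threshold was 0 in all comparisons under all alternatives, except that without slide E it was 1 in CD 14 against CD 3, and that leaving out 1 array at a time gave 0 to 1 there and 0 to 1 in the F test over the groups, with Ucp2 called without CD 3 replicate 5. Of all 19425 probes, 122 passed in CD 14 against CD 3 without slide E, and 205 there and 140 in the F test (5 with all arrays) without CD 3 replicate 5. Probes other than the 8 genes passed elsewhere too, with 208 in BD 3 against CD 3 in Cy5 alone, 93 there without CD 3 replicate 5 and 85 without slide E, and 99 in BD 14 against BD 3 with array weights. Of 40 differences (8 genes, 4 comparisons and the interaction), 18 had 1 sign throughout, among them Vnn1 in BD 14 against CD 14 and Ucp2 in CD 14 against CD 3. With normexp and loess, the sign turned in BD 3 against CD 3 Pdk4 0.070, Plin5 0.059, and in BD 14 against CD 14 Ucp2 0.071. With Cy5 alone, the sign turned in BD 3 against CD 3 Pdk4 1.15, Plin2 0.064, Plin5 1.15, and in BD 14 against BD 3 Pdk4 -0.18, Plin5 -0.0020, and in CD 14 against CD 3 Plin2 0.10, Plin5 0.25, and in the interaction Plin5 -0.25. With the slide block, the sign turned in BD 3 against CD 3 Pdk4 0.55, Angptl4 0.34, Plin2 0.57, Plin5 2.06, Fgf21 0.48, and in BD 14 against CD 14 Pdk4 0.059, Plin5 -0.59, and in BD 14 against BD 3 Pdk4 -0.21, Angptl4 -0.26, Plin5 -0.99, Ucp2 -0.048, and in CD 14 against CD 3 Plin2 0.51, Plin5 1.66, Fgf21 0.79, and in the interaction Plin5 -2.66, Creb3l3 -0.0029. With array weights, the sign turned in the interaction Pdk4 0.10, and in BD 14 against CD 14 Ucp2 0.036. Without slide E, the sign turned in BD 3 against CD 3 Pdk4 0.24. Without the 2 arrays rich in non-uniform spots, the sign turned in BD 14 against CD 14 Pdk4 0.021, and in CD 14 against CD 3 Pdk4 -0.19, and in the interaction Pdk4 0.40. With slide B alone, the sign turned in BD 3 against CD 3 Pdk4 1.09, Plin2 0.84, Plin5 2.49, Fgf21 0.84, Vnn1 -0.59. With slide C alone, the sign turned in BD 14 against CD 14 Pdk4 0.059, Plin5 -0.59. With slide E alone, the sign turned in CD 14 against CD 3 Pdk4 -0.43, Angptl4 0.42, Plin2 0.15, Plin5 1.10, Fgf21 0.30. Without arrays with a surrogate, the sign turned in BD 3 against CD 3 Plin5 1.55, and in CD 14 against CD 3 Plin5 1.58. Leaving out 1 array at a time gave both signs for Pdk4 in BD 3 against CD 3 (-0.38 to 0.24), Pdk4 in BD 14 against CD 14 (-0.14 to 0.028), Pdk4 in CD 14 against CD 3 (-0.12 to 0.50), Pdk4 in the interaction (-0.29 to 0.33), Plin2 in BD 3 against CD 3 (-0.20 to 0.24), Plin2 in CD 14 against CD 3 (-0.33 to 0.25), Plin5 in BD 3 against CD 3 (-1.01 to 0.27), Plin5 in CD 14 against CD 3 (-0.99 to 0.29), Vnn1 in BD 14 against BD 3 (-0.12 to 0.60), Ucp2 in BD 14 against CD 14 (-0.15 to 0.071). The cause of these changes was not tested. Leaving out slide E, the arrays rich in non-uniform spots or those with a surrogate, and the use of the authors' Ucp2 values were chosen after seeing the data, as was the correlation of Plin2 with Plin5 without surrogates. Rats of the same number in different groups had correlations of deviations with a median of -0.013 (31 pairs), against -0.025 for the other 150 pairs, so the numbers do not pair them, and the replicate block left the count of members called at 0 in each of the comparisons. Each gene has 1 probe, so other probes of a gene could not be tried, and the strict filter drops Ucp2 and Plin5. The Cy3 channel of Plin5 was not well above background on 10 arrays.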

Other observations

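After quantile normalization the SD of the log2 Cy3 signal over the 22 arrays was 1.04 for Fgf21, 0.93 for Plin5, 0.84 for Ucp2, 0.77 for Pdk4, 0.58 for Vnn1, 0.45 for Plin2, 0.41 for Angptl4 and 0.18 for Creb3l3. Before it, the Cy3 signal ranged over 4.63 log2 units for Plin5, 4.39 for Ucp2 and 2.96 for Fgf21. A larger Cy3 SD was found in 2.22% of probes above background on all arrays for Fgf21, in 3.58% for Plin5, in 5.62% for Ucp2 and in 8.08% for Pdk4.

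Of 4 relatives of Ucp2, 1 passed the filter. The probe of Ucp1, the uncoupling protein of brown fat, was well above background on 0 arrays, and those of Ucp3 and Slc25a27 did not pass the filter. Slc25a14 was well above background on all 22 arrays and had a difference of -0.31 in CD 14 against CD 3. Of the 7 adipocyte markers 4 passed the filter, and Adipoq, Lep and Plin1 did not. In CD 14 against CD 3 all 4 adipocyte markers tested and 5 of 6 leukocyte markers were higher, with median differences of 0.98 and 0.56. Red cell markers were lower on the BASE-diet for 5 of 5 genes at both times, with medians of -0.67 at 3 months and -0.35 at 14 months. At 3 months 2 of them had an unadjusted limma p under 0.05, beside 2.12% of all probes that were lower at that p. Endothelial markers were higher on the BASE-diet for 5 of 5 genes at 3 months (median 0.19) and for 1 of 5 at 14 months (median -0.29). Of 12 clock genes tested, 9 were higher on the BASE-diet at 3 months and 6 at 14 months, with medians of 0.19 and -0.04. None of these genes passed the adjusted threshold, and their part in the differences of the 8 genes was not tested.

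Further genes met the naming rule. Lpin1, a phosphatidate phosphatase, was higher on the BASE-diet by 1.20 at 14 months (adjusted limma p 0.852). In CD 14 against CD 3, Cfd (adipsin), Nkg7 (a lymphocyte granule protein) and Lyve1 (a hyaluronan receptor of endothelium) were higher by 1.17, 1.06 and 1.53, with adjusted limma p between 0.225 and 0.314, and 3 of 5 endothelial markers were higher (median 0.094). Nr1d2, a clock repressor, was higher by 1.28 in BD 14 than in BD 3 (adjusted limma p 0.411), where 8 of the 12 clock genes were lower (median -0.13).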
